A study of Homo sapiens with 8 samples.

Results

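The genes described here are the WNT ligand, receptor and effector genes of PC-3, a prostate cancer cell line that grows without androgen. They were chosen by gene symbol: a WNT, FZD, DKK, SFRP, LGR4 to LGR6, LRP5 or LRP6, DVL, AXIN, TCF7 or RSPO symbol, or CTNNB1, APC, LEF1 or GSK3B, with antisense symbols left out. The rule found 34 genes among the 14884 that were measured by a probe set with a single symbol, and each of the 34 was read by 1 probe set. They were 33 protein-coding genes and FZD4-DT, a non-coding transcript that starts next to FZD4. WNT2 was the 1 WNT ligand among them; other WNT ligands, the Dishevelled genes, the TCF7 genes and CTNNB1 were not analysed here. No member was removed for a low value.

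RNA of 8 clonal isolates was hybridised to 8 Affymetrix arrays, so that each clone has 1 array. The RWDD4 group held clones 17, 24, 5 and 6, which carried a p-Lenti vector with the RWDD4 gene, and the control group held clones 2, 3, 4 and 5 with the empty vector. All 8 clones came from blasticidin-selected PC-3 cells, and no further treatment was given. The labels do not say whether the clones of a group descend from separate infections, so the p-values measure the spread between these clones. The comparison concerns the effect of extra RWDD4, which encodes a small RWD domain protein, on expression in these cells.

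In the canonical WNT pathway, a secreted WNT protein binds a frizzled receptor together with the co-receptor LRP5 or LRP6. Without that signal a destruction complex built on the scaffolds AXIN and APC, with the kinase GSK3B, marks beta-catenin for degradation; with it, beta-catenin enters the nucleus and acts with TCF and LEF factors. R-spondins strengthen the signal through LGR receptors, and DKK and SFRP proteins damp it outside the cell. PC-3 cells are known for secreting DKK1 and for bone lesions in which bone is lost.

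The values are log2 values per probe set, as deposited, so a difference of 1 is a 2-fold change. They compare 1 gene between clones and do not rank different genes by abundance. RWDD4 lay at 9.87 to 10.46 in the RWDD4 clones and at 6.64 to 8.0 in the control clones, a difference of 2.94 (SE 0.25; adjusted p = 5.98e-05 from limma). Keratin 18 (KRT18), an epithelial marker, lay at 10.49 to 10.87 in the RWDD4 clones and at 10.89 to 11.20 in the control clones, and KLK3, a luminal prostate gene that PC-3 is known to lack, at 5.49 to 6.10. No background level was measured, so whether members with such readings were expressed was not determined. For 9 members the mean of each group was lower than the middle value of all probe sets on the arrays. The other members were not shown to be expressed by this. The fallen RSPO3, with means of 4.64 and 4.99 in RWDD4 and control clones, and FZD10, with 5.0 and 5.31, are not among the 9. Both lay below KLK3, with 5.76 and 5.81. Of the 4 epithelial markers measured 3 fell, KRT18 by 0.40, KRT19 by 0.54 and KRT8 by 0.28, and EPCAM did not pass, at 0.13; the list means were 8.41 to 8.52 (RWDD4 clones) and 8.67 to 8.87 (control clones). Of the stromal markers 2 of 3 measured fell, with a mean level over the list of 5.29 to 5.41 (RWDD4 clones) and 5.51 to 5.71 (control clones). Both blood cell markers measured, CD14 and CD68, fell. CD14 had means of 4.09 (RWDD4 clones) and 4.51 (control clones), and CD68 of 10.21 and 10.6. The list means, 7.06 to 7.35 and 7.32 to 7.70, therefore describe neither gene. No marker had a reading of 0 on this scale. The part of these markers in the results was not tested.

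A gene is said to have risen or fallen when its Benjamini-Hochberg adjusted p from limma, fitted over all genes, was under 0.05. Of the 34 members, 8 rose and 10 fell. The 18 called members are 52.9% of the set, against 46.7% of all genes, so the share is near that of the whole array. By direction the background was 25.1% up and 21.6% down. The groups did not overlap in 18 members, against 44.8% of all genes. The median difference was -0.07 over the members and -0.08 over all genes. The risen members differed by 0.49 to 1.83 log2 units and the fallen ones by -0.54 to -0.31.

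**Figure D1:**
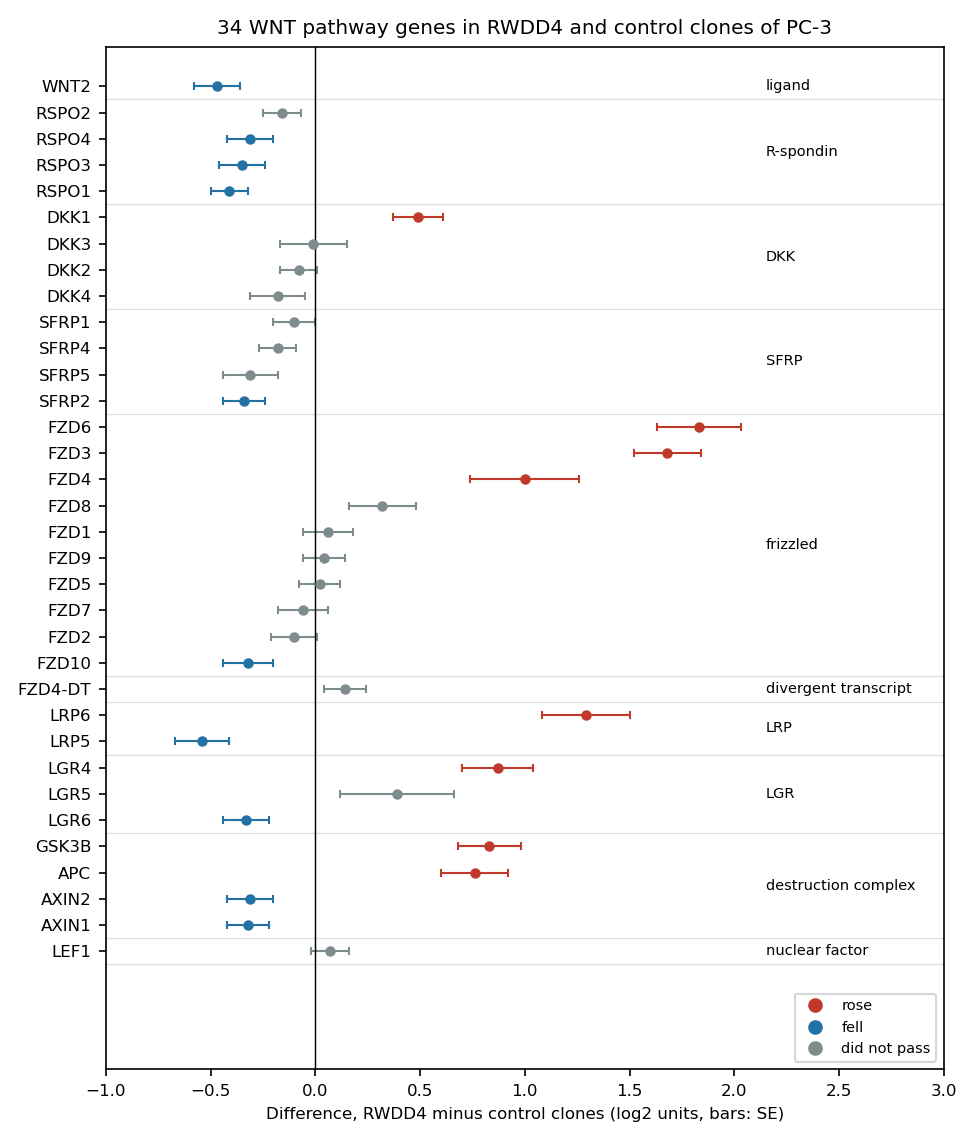
Difference between RWDD4 and control clones (x axis, log2 units, bars: SE) for all 34 genes, grouped by role; red genes rose, blue genes fell and grey genes did not pass. FZD6, FZD3, LRP6 and FZD4 lie at 1 or more, and no gene lies below -0.54.

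Leaving out single clones ended calls of fallen members and of no risen member. All 8 rises passed with any 1 of the 8 clones left out, with each of 3 other scalings (cyclic loess, quantile normalization, median centring), and with the trend of each array over genomic span removed. Of the 10 falls, LRP5, WNT2 and RSPO1 passed with any 1 clone left out; the number of falls was 3 without RWDD4 clone 5, 6 without RWDD4 clone 6 and 6 without control clone 4. AXIN2 was lost without any 1 RWDD4 clone or control clone 3, AXIN1 without RWDD4 clone 24 or 5 or control clone 2 or 4, and LGR6 without RWDD4 clone 17 or 5 or control clone 4 or 5. RSPO3 was lost without RWDD4 clone 5 or 6 or control clone 5, RSPO4 without RWDD4 clone 17, 5 or 6 or control clone 4 or 5, SFRP2 without RWDD4 clone 5, and FZD10 without any 1 clone other than RWDD4 clone 17 and control clone 3. Neither rises nor falls passed when the fit carried a covariate for where an array lies on the main axis along which clones of 1 group differ: 0 of 34 members and 1 of all genes did. That axis carried 38.9% of the variation within groups, and the groups did not overlap on it: the RWDD4 clones had scores of -0.41 to -0.23 and the control clones of 0.14 to 0.67. Control clone 2 had the highest position, and it was the lowest control clone in 8 of the 8 risen members, as in 75.5% of all genes that rose. The axis and the vector cannot be told apart in these 8 arrays.

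Among the 10 frizzled receptor genes, 3 rose, 1 fell and 6 did not pass, a called share of 40% against 46.7% of all genes. FZD6 (Entrez gene 8323), a receptor best known for planar cell polarity, lay at 9.61, 9.68, 9.96 and 9.78 in RWDD4 clones 17, 24, 5 and 6, and at 7.25, 8.10, 8.0 and 8.35 in control clones 2, 3, 4 and 5. The lowest RWDD4 clone stood more than 1 log2 unit above the highest control clone. The means were 9.76 ± 0.15 and 7.92 ± 0.47 (SD, n = 4 each), a difference of 1.83 (SE 0.20), or 3.56-fold (adjusted p = 9.96e-05, limma). It was the largest difference of the set and ranked 190 by size among all genes.

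FZD3 (Entrez gene 7976), which guides growing axons and also acts in planar polarity, was at 6.19, 6.27, 6.54 and 6.83 in the RWDD4 clones and at 4.45, 5.02, 4.76 and 4.88 in the control clones. Again no clone of one group reached the other. FZD3 rose by 1.68 (SE 0.16), which is 3.21-fold (adjusted p = 6.67e-05, limma), the lowest p of the set. With the axis as a covariate FZD3 lay at 0.92 (SE 0.24) and FZD6 at 0.67 (SE 0.20), with unadjusted p of 0.00351 and 0.0073 and adjusted p of 0.186 and 0.226 from limma. They were 2 of the 3 members with an unadjusted p under 0.05 in that fit; the other was LGR6.

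FZD4 (Entrez gene 8322), the receptor of the retinal vessel ligand norrin, read 9.03, 9.29, 9.70 and 9.42 in the RWDD4 clones and 7.56, 8.29, 8.64 and 8.94 in the control clones. The groups came within 0.1 log2 units of each other, between RWDD4 clone 17 and control clone 5. The difference was 1.0 (SE 0.26), or 2-fold (adjusted p = 0.009, limma), and with the axis as a covariate it was -0.36 (SE 0.33), which did not pass. FZD4-DT, which starts 226 bases from FZD4 on the opposite strand, lay at 3.91 to 4.28 in RWDD4 clones against 3.84 to 3.96 in controls, a difference of 0.14 (SE 0.10; adjusted p = 0.279, limma).

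FZD10 fell in the fit but its groups overlapped, at 4.77 to 5.21 against 5.19 to 5.54, and its difference of -0.32 (SE 0.12; adjusted p = 0.0458, limma) did not pass after quantile normalization or cyclic loess. FZD8 lay at 10.10 to 10.54 in the RWDD4 and 9.55 to 10.27 in the control clones, a difference of 0.32 with a 95% confidence interval of -0.04 to 0.68. The remaining receptors FZD1, FZD2, FZD5, FZD7 and FZD9 differed by -0.10 to 0.06, and their groups overlapped. Their 95% intervals all lay between -0.33 and 0.32, so a change in reading of the size seen in FZD3 or FZD6 was outside them. FZD7 is 1 of the 9 members with low readings, and FZD9, with means of 5.3 and 5.26 in RWDD4 and control clones, lay below KLK3. For FZD7 and FZD9 the intervals describe the readings, and whether these genes were expressed was not determined. FZD2 passed as a fall after quantile normalization, at -0.29.

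The co-receptor genes LRP5 and LRP6, whose proteins take the same place beside the frizzled receptor, moved in opposite directions. LRP6 (Entrez gene 4040) lay at 7.44, 7.27, 7.72 and 7.84 in the RWDD4 clones and at 5.63, 6.48, 6.30 and 6.68 in the control clones. Its difference was 1.29 (SE 0.21), or 2.45-fold (adjusted p = 0.000733, limma). LRP5 (Entrez gene 4041) lay at 8.99, 8.99, 8.93 and 9.26 in the RWDD4 clones and at 9.92, 9.60, 9.47 and 9.35 in the control clones. It fell by 0.54 (SE 0.13), or 1.45-fold (adjusted p = 0.00671, limma), the largest fall of the set. Neither gene's groups overlapped, and control clone 2 was the lowest control clone for LRP6 and the highest for LRP5. The difference LRP6 minus LRP5, taken within each clone, was -3.31 ± 0.69 in the control and -1.48 ± 0.21 in the RWDD4 clones (SD, n = 4 each); it is a description, since the pair was chosen with both values known. With the axis as a covariate LRP6 lay at 0.04 (SE 0.19) and LRP5 at -0.11 (SE 0.25).

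**Figure D2:**
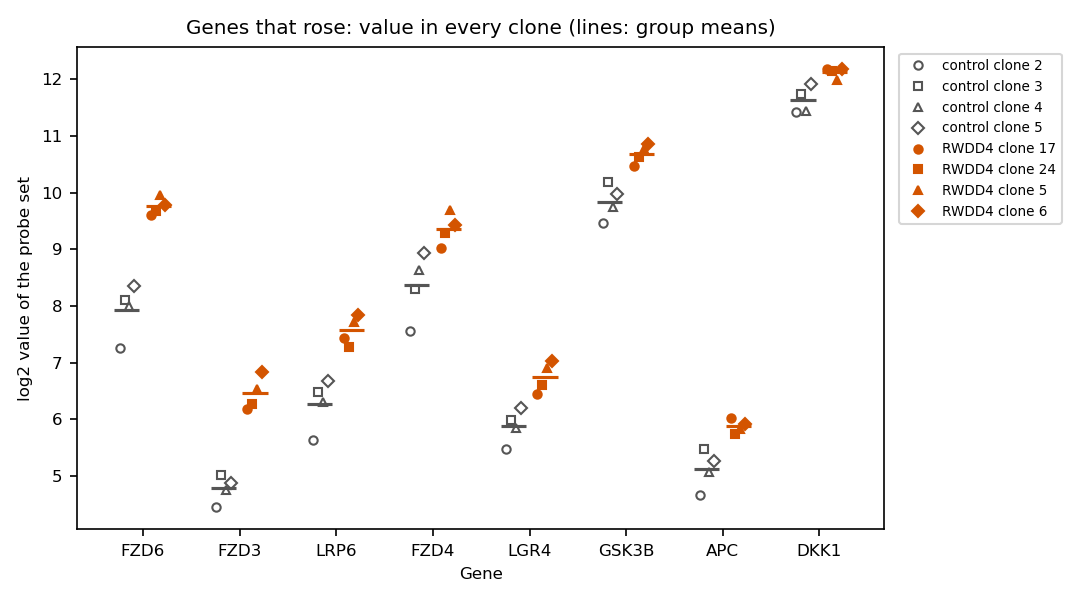
Log2 value (y axis) of the 8 genes that rose, in every clone; open grey symbols are control clones, filled orange symbols RWDD4 clones and lines group means. The groups do not overlap in any of the 8 genes, and control clone 2 is the lowest clone in each.

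Of the 3 LGR genes, receptors of R-spondins, LGR4 rose, LGR6 fell and LGR5 did not pass. LGR4 lay at 6.45, 6.61, 6.91 and 7.03 in the RWDD4 clones and at 5.48, 5.98, 5.85 and 6.20 in the control clones, a difference of 0.87 (SE 0.17), or 1.83-fold (adjusted p = 0.00204, limma). LGR6 lay at 5.41 to 5.69 and at 5.71 to 6.02, a difference of -0.33 (SE 0.11; adjusted p = 0.0288, limma), and with the axis as a covariate at -0.57 (SE 0.22; adjusted p = 0.315, limma). LGR5, a stem cell marker and WNT target, differed by 0.39 with overlapping groups: RWDD4 clone 24 had the highest reading, 6.10, RWDD4 clone 6 lay at 4.82, and control clone 3 at 5.66 stood above 3 of the 4 RWDD4 clones. Its spread of 0.53 and 0.46 (SD, n = 4 each) was the widest of the members in the RWDD4 clones.

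Of the 4 R-spondin genes, whose products are the ligands of these receptors, 3 fell and none rose, against 21.6% of all genes that fell; the mean was lower in the RWDD4 clones for all 4, as for 8834 of the 14884 genes. RSPO1 lay at 6.10, 5.92, 5.86 and 5.79 in the RWDD4 clones and at 6.42, 6.33, 6.28 and 6.28 in the control clones. It fell by 0.41 (SE 0.09; adjusted p = 0.00499, limma). RSPO3 differed by -0.35 and RSPO4 by -0.31, with adjusted p of 0.0233 and 0.0420 from limma. RSPO3 did not pass after cyclic loess, and both were lost without single clones, as given above. RSPO2 lay at 4.41 to 4.67 against 4.71 to 4.76, groups that did not overlap, and its difference of -0.16 did not pass (adjusted p = 0.165, limma). RSPO2 is 1 of the 9 members with low readings in both groups. All 4 kept their negative sign under the 3 other scalings, with the span trend removed and with the axis as a covariate. In that last fit none of them passed. RSPO1 lay at -0.19 (SE 0.19) and RSPO2 at -0.09 (SE 0.19) there, and RSPO3 at -0.36 (SE 0.24) and RSPO4 at -0.4 (SE 0.25).

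WNT2 (Entrez gene 7472) lay at 4.46, 4.26, 4.29 and 4.21 in the RWDD4 clones and at 4.75, 4.56, 4.92 and 4.88 in the control clones. The groups did not overlap, and WNT2 fell by 0.47 (SE 0.11; adjusted p = 0.00420, limma). WNT2 too is among the 9 members with low readings.

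DKK1 (Entrez gene 22943), the secreted inhibitor that binds LRP5 and LRP6, lay at 12.18, 12.15, 11.98 and 12.18 in the RWDD4 clones and at 11.42, 11.74, 11.44 and 11.92 in the control clones. The clones of the 2 groups did not overlap, with RWDD4 clone 5 only just above control clone 5. DKK1 rose by 0.49 (SE 0.12), or 1.41-fold (adjusted p = 0.00776, limma). It was the smallest of the 8 rises. DKK2, DKK3 and DKK4 did not pass, at -0.08, -0.01 and -0.18. DKK4 varied little in the RWDD4 clones, at 4.33 to 4.37, and more in the control clones, at 4.29 to 4.88.

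Stretches of 250 bases before the start of 3 members are shown because an inhibitor and a receptor, DKK1 and FZD4, rose and a co-receptor, LRP5, fell. They are RefSeq sequences of build GRCh38.p14, and 21 of the 34 members were searched. FZD6, FZD3, DKK4, RSPO2 and SFRP1 were not searched, because all entries of their chromosome were left out for the members. The counts over all stretches kept that chromosome. The remaining members had no entry. In DKK1 (chr10:52314031-52314280, plus strand) capitals mark matches to a TCF and LEF core, searched as CTTTGA or CTTTGT followed by A or T on both strands, and to TATAAA on the strand of the gene. In FZD4 (chr11:86955396-86955645, minus strand) and LRP5 (chr11:68312341-68312590, plus strand) capitals mark CG dinucleotides.
DKK1: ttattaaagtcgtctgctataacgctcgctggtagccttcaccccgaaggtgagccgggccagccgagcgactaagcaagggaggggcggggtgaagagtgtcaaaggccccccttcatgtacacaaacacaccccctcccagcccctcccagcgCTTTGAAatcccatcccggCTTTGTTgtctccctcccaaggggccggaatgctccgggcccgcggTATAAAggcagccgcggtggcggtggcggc
FZD4: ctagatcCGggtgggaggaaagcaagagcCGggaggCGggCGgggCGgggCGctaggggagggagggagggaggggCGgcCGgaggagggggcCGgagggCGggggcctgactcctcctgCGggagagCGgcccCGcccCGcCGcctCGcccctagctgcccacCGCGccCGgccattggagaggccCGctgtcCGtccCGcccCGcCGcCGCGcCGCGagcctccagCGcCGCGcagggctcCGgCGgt
LRP5: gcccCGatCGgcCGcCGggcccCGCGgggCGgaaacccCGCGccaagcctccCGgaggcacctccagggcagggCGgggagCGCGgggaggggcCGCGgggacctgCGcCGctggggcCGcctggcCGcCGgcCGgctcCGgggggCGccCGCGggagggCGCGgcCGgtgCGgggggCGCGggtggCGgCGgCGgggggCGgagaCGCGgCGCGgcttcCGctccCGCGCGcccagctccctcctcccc

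Among the 21 members searched, DKK1 was the 1 with a TCF and LEF core match. It held 2, at 95 and 76 bases before the start, while 12% of 35116 such stretches of all genes held at least 1. Whether members that were not searched, among them FZD6 and FZD3, hold a match was not determined. A TATAAA lay 30 bases before the start of DKK1. Of all stretches 6.8% held one, and FZD8 was the other searched member that did. FZD4, which rose, and LRP5, which fell, both had CG-rich stretches, with 33 and 43 CG dinucleotides and a GC content of 80.8% and 87.2%, against medians of 11 and 58.0% over all stretches. A match is a description of the letters and does not show binding.

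Of the 4 secreted frizzled-related genes SFRP2 fell and none rose, against 21.6% and 25.1% of all genes. SFRP2 lay at 3.80 to 3.95 against 4.07 to 4.44, a difference of -0.34 (SE 0.10; adjusted p = 0.0177, limma). It is another of the 9 members with low readings, and its difference was -0.16 with the span trend removed and 0.04 with the axis as a covariate. SFRP5, SFRP4 and SFRP1 differed by -0.31, -0.18 and -0.10 and did not pass.

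**Figure D3:**
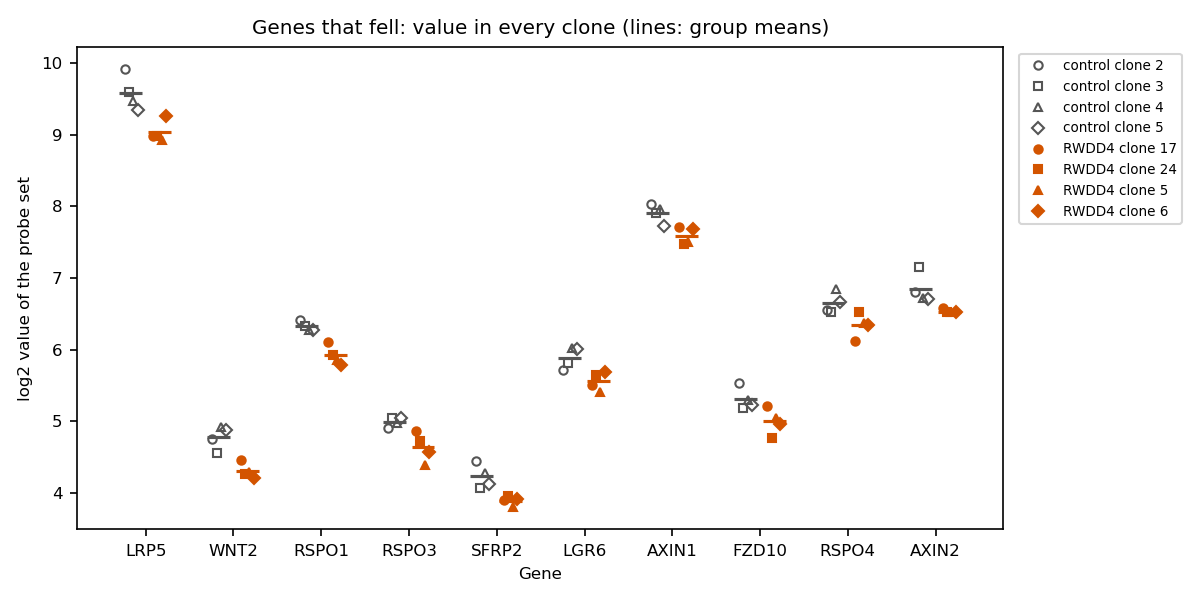
Log2 value (y axis) of the 10 genes that fell, in every clone, with symbols and lines as for the genes that rose. LRP5 shows the widest gap between group means, 9.04 against 9.58, and FZD10 is the 1 gene whose groups overlap.

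Of the 4 genes of the destruction complex 2 rose and 2 fell, against 25.1% and 21.6% of all genes. The 2 falls, AXIN1 and AXIN2, were lost without single clones, as given above. GSK3B, the kinase that phosphorylates beta-catenin, lay at 10.46, 10.63, 10.77 and 10.85 in the RWDD4 clones and at 9.47, 10.19, 9.74 and 9.98 in the control clones, and rose by 0.83 (SE 0.15; adjusted p = 0.00141, limma). APC, the scaffold lost in most colon cancers, lay at 6.03, 5.74, 5.83 and 5.91 against 4.66, 5.47, 5.07 and 5.26, and rose by 0.76 (SE 0.16; adjusted p = 0.00273, limma). The related genes of both fell: GSK3A lay at -0.42 (SE 0.09; adjusted p = 0.00291) and APC2 at -0.48 (SE 0.10; adjusted p = 0.00356), both from limma. The pairs differ in genomic span, with 273127 bases for GSK3B against 12413 for GSK3A, and 138742 for APC against 27015 for APC2. GSK3B lay at 0.08 (SE 0.22) and APC at 0.02 (SE 0.23) with the axis as a covariate.

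AXIN1, the other scaffold, lay at 7.71, 7.47, 7.5 and 7.68 in the RWDD4 clones and at 8.04, 7.91, 7.97 and 7.73 in the control clones, a difference of -0.32 (SE 0.10; adjusted p = 0.0226, limma). AXIN2, a scaffold that is itself a target of beta-catenin, lay at 6.58, 6.52, 6.52 and 6.52 against 6.8, 7.15, 6.72 and 6.70, a difference of -0.31 (SE 0.11; adjusted p = 0.0391, limma). Control clone 3 had the highest AXIN2 reading, and without that clone the difference was -0.21. LEF1, the 1 nuclear factor of the set, lay at 3.19 to 3.36 and 3.12 to 3.32 and did not pass, at 0.07 with a 95% interval of -0.13 to 0.27.

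Across all protein-coding genes the difference rose with genomic span, the length of a gene from start to end on the chromosome: the median was -0.23 in the decile of shortest genes and 0.37 in the ninth decile. It was lower again, at 0.17, in the decile of longest genes, where 43.4% rose and which holds GSK3B and RSPO2. The members were set against it. LRP5 and LRP6 have almost the same span, 150864 and 151020 bases, in the decile where 51.1% of genes rose and 8.73% fell. LGR4 and LGR6 lie in that decile too. DKK1 spans 3377 bases and lies in the decile of shortest genes, where 3.86% rose. FZD4, at 9717 bases, lies in the third decile, where 15.2% rose. After the trend was removed from each array, FZD6 lay at 1.66, FZD3 at 1.35, FZD4 at 1.17, LRP6 at 0.96 and DKK1 at 0.75, and LRP5 at -0.87. All 8 rises and 8 of the 10 falls passed in that fit; FZD10, at -0.06, and SFRP2 did not. FZD8 and FZD9 passed there as rises, at 0.57 and 0.29, and RSPO2, DKK2, SFRP1 and LEF1 as falls, at -0.47, -0.42, -0.36 and -0.27.

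**Figure D4:**
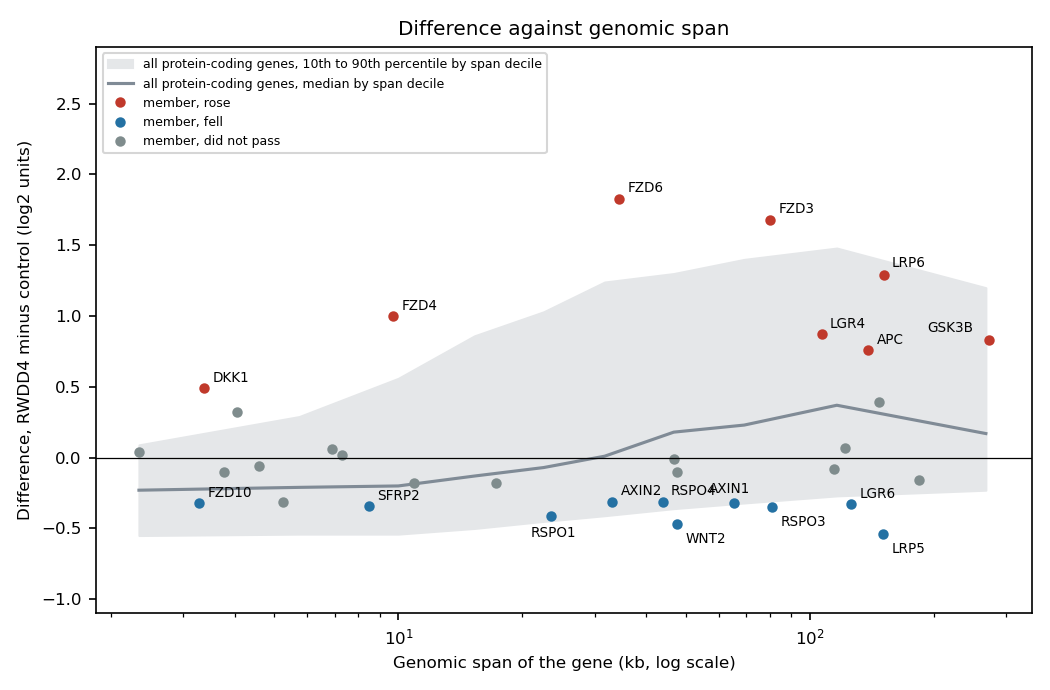
Difference between RWDD4 and control clones (y axis, log2 units) against genomic span (x axis, kb, log scale) for the 33 protein-coding members, over the band from the 10th to the 90th percentile and the median of all protein-coding genes in span deciles. Of the risen genes, DKK1, FZD4, FZD6 and FZD3 lie above the band, and of the fallen genes LRP5, LGR6, WNT2 and RSPO3 lie below it; LRP5 has nearly the span of LRP6.

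Further genes of the pathway were counted from lists by role. The lists hold 140 different symbols, and 78 of these were genes measured by a probe set with a single symbol. Of these 78 genes 25 rose and 17 fell, which is 53.8%, near the 46.7% of all genes, with a median of -0.03. With the axis as a covariate 0 of them passed. Of 27 other genes listed for the destruction complex and its turnover only 8 were measured, and 5 rose and 2 fell. The called share was 87.5%, against 46.7% of all genes, and the median 0.44, against -0.08. USP34, a deubiquitinase that acts on AXIN, rose by 1.82 (SE 0.20), from 6.0 to 6.91 in the control clones to 8.0 to 8.65 in the RWDD4 clones. BTRC and FBXW11, the related F-box proteins that recognise phosphorylated beta-catenin, rose by 0.97 and 0.96. AMER1, which brings the complex to the membrane, lay at 0.30 and did not pass.

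Of 23 nuclear cofactors listed 17 were measured, and 8 rose and 2 fell. The called share was 58.8%, against 46.7% of all genes, and the median 0.24, against -0.08. TBL1XR1, which binds beta-catenin at its targets, rose by 1.72, CHD8, a remodeller that represses them, by 1.32, and the acetyltransferase EP300 by 0.92. BCL9L, which links beta-catenin to pygopus proteins, fell by 0.65, while its relative BCL9 lay at 0.24 and did not pass. With the span trend removed 4 rose and 4 fell.

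Among 21 targets of beta-catenin 1 rose, 6 fell and 14 did not pass. The called share was 33.3%, against 46.7% of all genes, and the median -0.23, against -0.08. Of all genes 25.1% rose and 21.6% fell. CD44, an adhesion receptor, rose by 0.73. PPARD fell by 0.56, the feedback inhibitors APCDD1 and NKD1 by 0.43 and 0.38, and the transcription factor SP5 by 0.37. APCDD1, with means of 5.31 and 5.74 in RWDD4 and control clones, lay below KLK3, with 5.76 and 5.81. NKD1, with 6.02 and 6.4, and SP5, with 6.17 and 6.54, lay not far above it. Whether these 3 genes were expressed was not determined. MYC and CCND1, the growth genes most often read as WNT targets, lay at -0.24 and 0.19 and did not pass. MYC passed as a fall under the 3 other scalings, at -0.35 with quantile normalization, -0.36 with median centring and -0.28 with cyclic loess, and in the fit limited to genes at or above the median level, at an adjusted p of 0.0496 from limma. It did not pass with the span trend removed, at -0.04, or with the axis as a covariate, at -0.17. With the span trend removed 3 of the targets rose and 7 fell, and SP5 did not pass. The falls numbered 11 under quantile normalization, 11 under median centring and 10 under cyclic loess.

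Of 10 other receptor genes measured 3 rose and 2 fell, a called share of 50% against 46.7% of all genes. The receptors ROR1 and RYK rose by 0.79 and 0.63 and TMEM131L by 0.94, and ROR2, the relative of ROR1, fell by 0.39. ROR2, with means of 5.35 and 5.74 in RWDD4 and control clones, lay below KLK3. ZNRF3 and RNF43, ligases that remove frizzled receptors from the membrane, lay at -0.10 and -0.07 and did not pass. The list of secretion and extracellular control had 2 up and 2 down of 11 measured, or 36.4% called. The glypicans GPC6 and GPC4 rose by 0.81 and 0.68 (GPC4 did not pass with the span trend removed), and TRABD2A and TPBG fell by 0.46 and 0.29. WLS, which carries WNT proteins to the surface, lay at 0.32 and did not pass. In the planar polarity and calcium branch, to which FZD3 and FZD6 also belong, 11 of 33 listed genes were measured. Of these 4 rose and 2 fell, or 54.5% called. DAAM1 rose by 1.27, PRICKLE1 by 1.26 and the kinase CAMK2D by 1.17, while PRICKLE3 fell by 0.73. Of 10 catenin and cadherin partners listed only 3 were measured, and CDH1 and CTNNA1 were not among them. JUP, or gamma-catenin, fell by 0.89 (SE 0.10), and VCL and PKP4 rose by 0.69 and 0.65.

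**Figure D5:**
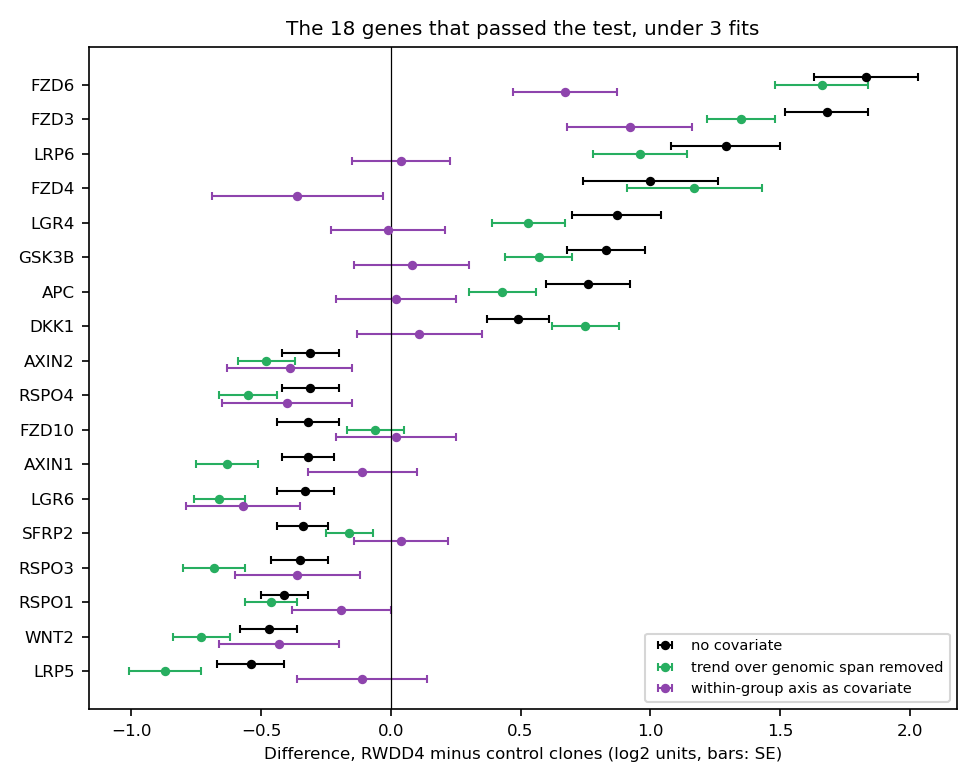
Difference between RWDD4 and control clones (x axis, log2 units, bars: SE) of the 18 genes that passed, without a covariate (black), with the trend over genomic span removed (green) and with the axis within groups as a covariate (purple). FZD3 and FZD6 keep the largest differences in the third fit, 0.92 and 0.67, and LRP6 lies at 0.04 there.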

How the data were processed

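The authors deposited log2 values per probe set; Partek and RMA are named, with no version, per the submitters' processing notes. No batch, scan date or build is given in these sources. Of 53617 probe sets, 16098 had exactly 1 gene symbol in the platform annotation; where a gene had several, the one with the highest mean level was used. All 14884 genes were found by gene ID in the RefSeq table (GRCh38.p14), used for current symbols and spans. RWDD4 and control clones were compared with lmFit and eBayes of limma 3.58.1 (R 4.3.3), two-sided, without covariates. Named were all members, and from each pathway list some of the called genes, not always those with the largest differences, and up to 2 not called. Members and lists were chosen with earlier results of these data known. The steps were run on simulated data in which planted changes lay in noise drawn separately for each gene and clone. Such noise lacks the axis shared by genes in these data, so that run does not bear on the calls given here. The number of arrays limits the precision. Alternatives covered the variance model, probe sets, a level filter, 3 scalings, array weights, genomic span (lowess span 0.3), the within-group axis and each clone left out.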

Additional observations from a re-analysis of the deposited data

Results flagged for a closer look

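In 3 of the 70 groups of 4 clones examined (34 genes and RWDD4 in both groups), 1 clone stood apart from the other 3 by Dixon's criterion at the 95% level; chance flags about 1 in 20. AXIN2 was 6.58 in RWDD4 clone 17, against 6.52 in the other RWDD4 clones, a gap that is large only beside their very small spread. DKK1 was 11.98 in RWDD4 clone 5, against 12.15 to 12.18 in the others, and still above every control clone. RWDD4 itself was 9.87 in RWDD4 clone 6, against 10.42 to 10.46 in the others.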

How the results depend on the processing

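No paired analysis was made, because the labels give no pairing of RWDD4 and control clones. The number 5 occurs in both groups but names separate isolates with different vectors. With the covariate for the axis within groups, 0 members rose and 0 fell, against 8 and 10, and 0 genes rose and 1 fell of all genes, against 3741 and 3214; 3 members and 1910 genes had an unadjusted p under 0.05 (limma). In that fit FZD4 was at -0.36, LGR4 at -0.01, FZD10 at 0.02, SFRP2 at 0.04, VCL at -0.09, CD44 at 0.00, CREBBP at -0.28, EP300 at -0.24, TBL1X at -0.20, HIPK2 at -0.17, NLK at -0.10, TMEM131L at -0.20 and GPC4 at -0.06, each with the opposite sign or none. With the span trend removed LEF1 was at -0.27 and RUVBL1 at -0.29, which passed, and ASCL2 at 0.02. Leaving out 1 clone gave 3 to 9 falls among the members (8 rises each time). Median centring moved the median of all genes by -0.12 and gave 5765 falls of all genes; relative to that shift the members' counts were 8 up and 13 down. The cause of these changes was not tested. All other counts of members and of all genes stayed within 1.5 times. The background of single probes was not analysed here.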
